A study of Caenorhabditis elegans with 2 samples.

Results

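The regions described here are 1289 peaks of RNA polymerase II whose summits lay inside exons, away from the ends of genes. They were taken from the chromatin immunoprecipitation sequencing (ChIP-seq) peak list that pools both replicates. That list holds 30000 peaks, and the 5000 with the highest signal value were kept. Of these, 594 lay on the X chromosome and 4406 on the 5 autosomes. A peak of the 4406 was a member when its summit lay in an exon of a protein-coding gene, over 250 bp from every annotated start and end of a protein-coding gene, and over 250 bp from snRNA, snoRNA, miRNA and tRNA genes. These exonic gene-body peaks made up 29.3% of the autosomal peaks (95% interval 27.9 to 30.6%, exact binomial, counting error only). The pooled signal values and summit positions chose the members, so both are given below as descriptions and no test is made of them.

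The study immunoprecipitated AMA-1, which is the catalytic large subunit of the enzyme, from whole late embryos of the Caenorhabditis elegans wild-type strain N2. The embryos were of mixed sex and unknown age, and the labels give no treatment or mutant allele. The series has 2 biological replicates of this 1 group, so it holds no comparison between conditions. All tissues of the embryo were sequenced as a mixture, in which a gene occupied in few cells and a gene weakly occupied in many cells cannot be told apart. Read depth is unknown, and no control library was analysed here.

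RNA polymerase II is loaded at a gene's start, moves through exons and introns while it makes the transcript, and is released past the site where the transcript is cleaved and polyadenylated. In ChIP-seq its signal is typically highest where the enzyme dwells, at starts and past ends, and lower through the gene body. A summit within the body can lie over transcribing polymerase or over a start or end that belongs only to some transcripts of the gene. In C. elegans many genes have such inner starts, and many transcripts begin with a trans-spliced leader, so annotated starts can differ from the place of initiation.

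The sequence under a summit shows what kind of DNA these peaks covered. The 6 stretches below are those of the highest members, taken in order of signal value on chromosomes II to V and restricted to summits whose surroundings were all coding sequence or introns. Each spans the summit base and 100 bases on either side, read 5′ to 3′ on the strand of the gene, from the RefSeq genome of the WBcel235 assembly (ce11). Capitals mark coding bases and lower case marks introns.
nurf-1, chrII:14405566-14405766, forward strand: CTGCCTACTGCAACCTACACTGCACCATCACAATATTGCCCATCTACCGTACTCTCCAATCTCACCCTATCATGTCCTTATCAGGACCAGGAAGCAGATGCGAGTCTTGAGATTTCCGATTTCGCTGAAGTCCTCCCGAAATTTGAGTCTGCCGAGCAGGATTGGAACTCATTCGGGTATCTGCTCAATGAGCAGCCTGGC
zip-2, chrIII:835276-835476, forward strand: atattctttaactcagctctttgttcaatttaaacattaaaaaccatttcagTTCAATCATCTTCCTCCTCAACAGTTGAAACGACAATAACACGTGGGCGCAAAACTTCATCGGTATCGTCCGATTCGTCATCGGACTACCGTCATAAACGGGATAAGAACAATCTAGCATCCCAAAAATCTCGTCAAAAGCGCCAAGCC
chtb-1, chrIII:9353217-9353417, reverse strand: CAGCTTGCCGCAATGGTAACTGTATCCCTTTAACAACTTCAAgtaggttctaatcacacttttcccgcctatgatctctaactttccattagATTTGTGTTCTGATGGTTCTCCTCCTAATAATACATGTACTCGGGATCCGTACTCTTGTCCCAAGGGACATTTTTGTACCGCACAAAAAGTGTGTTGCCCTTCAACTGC
T28B11.1, chrV:10714403-10714603, reverse strand: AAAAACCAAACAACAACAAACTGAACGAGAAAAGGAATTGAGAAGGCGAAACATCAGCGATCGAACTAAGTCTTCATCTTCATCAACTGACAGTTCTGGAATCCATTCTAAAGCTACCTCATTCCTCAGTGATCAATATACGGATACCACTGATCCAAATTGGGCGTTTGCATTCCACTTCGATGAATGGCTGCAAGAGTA
C56C10.7, chrII:6587203-6587403, reverse strand: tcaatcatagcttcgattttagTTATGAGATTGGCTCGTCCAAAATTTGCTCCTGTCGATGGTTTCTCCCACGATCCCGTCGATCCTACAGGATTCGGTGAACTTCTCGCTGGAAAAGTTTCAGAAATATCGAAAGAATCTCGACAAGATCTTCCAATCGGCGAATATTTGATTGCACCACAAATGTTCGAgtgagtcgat
magu-2, chrV:8793045-8793245, reverse strand: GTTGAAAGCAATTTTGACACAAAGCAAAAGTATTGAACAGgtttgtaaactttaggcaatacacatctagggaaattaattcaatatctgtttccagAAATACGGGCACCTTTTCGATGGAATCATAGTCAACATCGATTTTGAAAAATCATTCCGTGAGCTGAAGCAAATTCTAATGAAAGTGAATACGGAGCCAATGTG

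The stretches in nurf-1 and T28B11.1 were coding throughout. The other 4 crossed an exon edge, with 144 coding bases in magu-2, 149 in zip-2, 151 in chtb-1 and 169 in C56C10.7. Their GC content ran from 35.3% in magu-2 to 50.2% in nurf-1. The summits in nurf-1 and chtb-1 were also intronic in another transcript. The gene nurf-1 encodes a subunit of the NURF chromatin remodelling complex, zip-2 a bZIP transcription factor and magu-2 a membrane-associated guanylate kinase homologue. The product of chtb-1 carries a chitin-binding domain, and RefSeq names C56C10.7 as a putative subunit of a vesicle-trafficking complex and T28B11.1 as an F-box protein.

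All members were 350 bp wide, and their median signal value was 29.3 (interquartile range 26.6 to 34.2, from 24.5 to 149.7). The signal value is the authors' peak score, without a stated scale, and is used here only to rank and describe peaks. The lowest members were trcs-2, mak-2 and tbc-14 at 24.48 and lrp-1 and T04C9.1 at 24.47, with ranks 4983 to 4997. The next exonic gene-body peaks outside the limit were pod-2, cey-1 and nlp-30 at 24.45 and T28D6.4 and mig-1 at 24.44, with ranks 5002 to 5007. The limit therefore cut through a continuous run of values.

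Exonic gene-body peaks were rare among the highest peaks and common below them. Among the 100 highest pooled peaks they were 5 of 89 autosomal summits (5.62%, 95% interval 1.85 to 12.6%), and over ranks 1 to 500 they were 61 of 443 (13.8%, 10.7 to 17.3%). The share was 23.3% over the next 500 ranks, 27.5% over ranks 1001 to 1500 and 32.8% over ranks 4501 to 5000. It stayed near that level below the limit, at 33.9% over ranks 5001 to 7500, and was 27.4% over the last 2500 ranks. Summits near starts or ends ran the other way, from 45.6% over ranks 1 to 500 to 28.0% over ranks 4501 to 5000.

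Each replicate's own list also had its lowest share at the top, though less low in replicate 2. In replicate 1 the exonic gene-body share was 12.8% over ranks 1 to 500 and 35% over ranks 4501 to 5000. In replicate 2 it was 20.3% (16.6 to 24.3%) and 35%, and it had already reached 33.3% over ranks 501 to 1000. Over the 5000 highest peaks of each replicate, the class held 1227 of 4403 autosomal summits in replicate 1 (27.9%) and 1436 of 4264 in replicate 2 (33.7%).

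**Figure D1:**
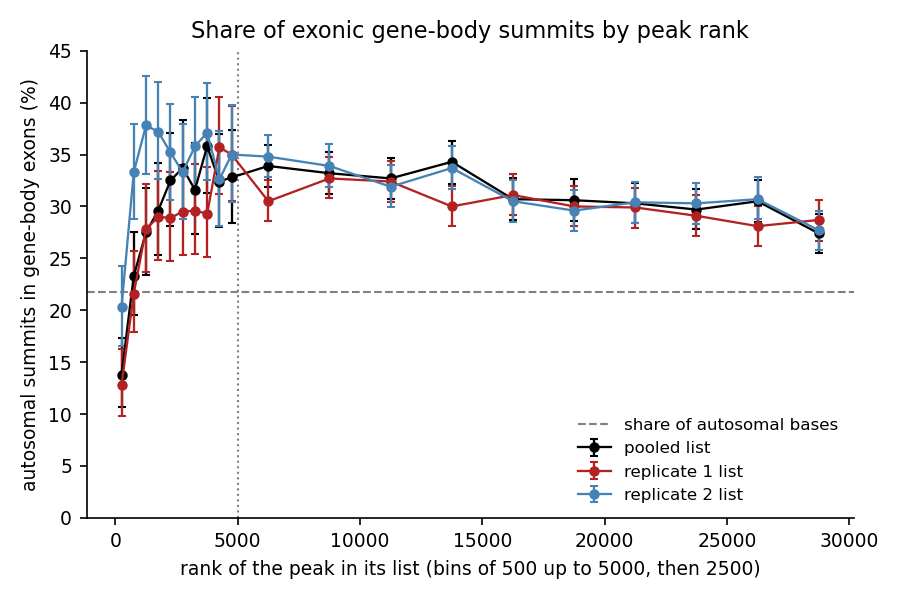
The share of autosomal summits that lay in gene-body exons (vertical axis, %) is plotted against peak rank (horizontal axis) in the pooled list and in each replicate's list, with 95% exact binomial intervals as bars. The dashed line is the share of autosomal bases that met the same position rule (21.8%) and the dotted line is rank 5000. All 3 lists start below the dashed line, although the replicate 2 interval spans it there, and are above it from rank 1001 on.

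Exon bases that met the position rule made up 17995672 bp, or 21.8% of the 82553665 bp of autosomes, and these are called eligible bases below. The members gave 7.16 summits per 100 kb of them. Introns of gene bodies held 3.61 summits per 100 kb (931 peaks) and autosomal sequence outside protein-coding genes 2.28 (536 peaks). The windows around starts and ends held 10.1 per 100 kb (1488 peaks), and those around small RNA genes 29.3 (162 peaks). By density, exonic gene-body sequence thus stood above introns and below the windows at starts and ends.

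The replicates supported the members unequally. Replicate 1 had an overlapping peak among its own 5000 highest at 908 members (70.4%), beside 75.7% of all autosomal peaks in the pooled 5000. Replicate 2 had one at 552 members (42.8%), beside 42.6%. Both had one at 324 members (25.1%, 95% interval 22.8 to 27.6%), beside 27.8% of all autosomal peaks. Since the pooled list was made from both replicates, this overlap is not independent of the choice of members.

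Most of the remaining members had a peak among the 5000 highest of 1 replicate only. Among the 5000 highest, 584 members (45.3%) had a peak in replicate 1 only, beside 47.8% of all autosomal peaks in the pooled 5000. Another 228 (17.7%, beside 14.8%) had one in replicate 2 only and 153 (11.9%, beside 9.56%) in neither. This split was close to that of all autosomal peaks. In the full lists of 30000 peaks, 12 members (0.931%) had no peak in replicate 1, beside 1.36% of all autosomal peaks. In replicate 2, 198 members (15.4%) had none, beside 17.8%. Where both full lists had a peak (1079 members), replicate 1 gave the better rank at 642 (59.5%). The median best rank was 3253 in replicate 1 and 4880 in replicate 2, and the median distance between pooled and replicate summit was 13 bp and 40 bp. Median signal values at members were 21.7 in replicate 1 and 9.40 in replicate 2, on scores that need not share a scale. Across those 1079 members, signal values in the replicates had a Spearman's rho of −0.088, a description over peaks that were selected on a score made from both libraries.

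The authors' stricter list, thresholded by the irreproducible discovery rate (IDR), held 59 members in 50 genes (4.58%, 95% interval 3.50 to 5.86%), beside 9.56% of all autosomal peaks in the pooled 5000. The share was 4.94% for intronic peaks, 12.8% near starts and ends, and 42.0% near small RNA genes. The 476 peaks of that list match the 476 highest pooled peaks in position, so membership of that list is again the pooled height. Of the 59 members, 57 had a replicate 1 rank within 1000 and 24 a replicate 2 rank within 1000, while 3 had no peak in replicate 2. These 3 lay in unc-44, cbp-1, the gene of a CBP/p300 acetyltransferase, and nhr-66, the gene of a nuclear receptor.

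Support from both replicates was most frequent in the highest members. The pooled height was itself made from both replicates, so part of this pattern is built in and it is no separate result. The members were divided by height into 5 groups of 257 or 258. In the highest group (signal values 36.0 to 149.7), 60.9% had a peak among the 5000 highest of both replicates. The share was 31.4%, 16.7%, 8.14% and 8.56% in the next 4 groups, in order of height. Replicate 1 went from 98.1% to 44.0% between the highest and lowest groups, and replicate 2 from 62.8% to 30.4%. A peak among the 1000 highest of both replicates was found at 31 members (2.40%). The share was 6.08% for all autosomal peaks in the pooled 5000 and 4.08% for intronic peaks.

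**Figure D2:**
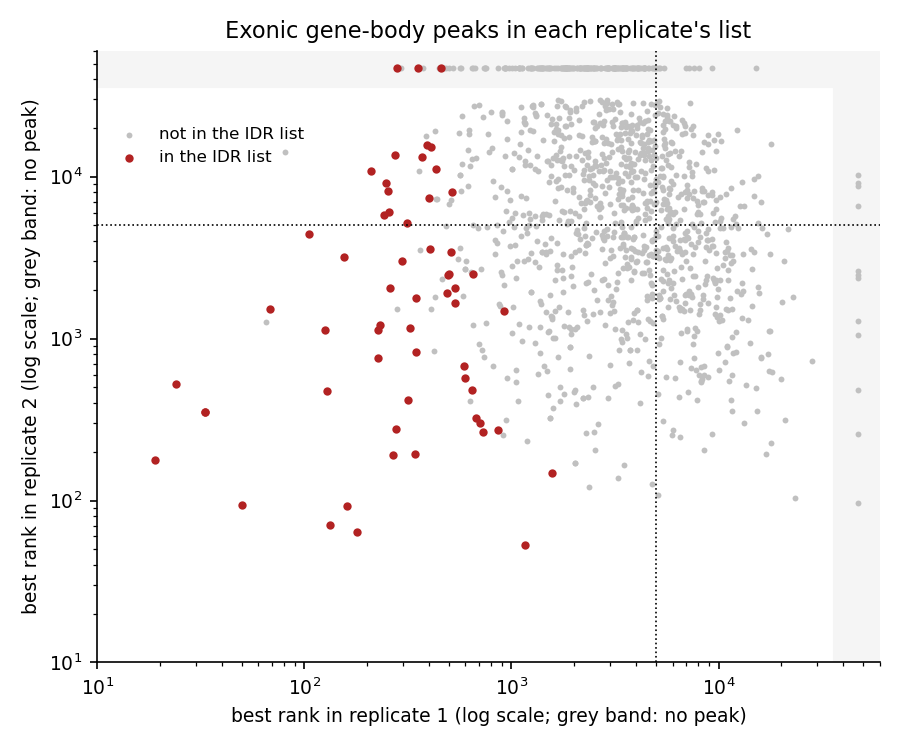
Each point is 1 of the 1289 members, placed by the rank of its best overlapping peak in replicate 1 (horizontal) and replicate 2 (vertical) on log scales, with members that had no peak in a replicate in the grey bands and rank 5000 dotted. The 59 members of the IDR list (red) lie at the left, 57 of them within rank 1000 of replicate 1, while in replicate 2 their ranks run from 53 to 15713 (in somi-1), with no peak for 3 of them.

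The highest member lay in nurf-1, with a pooled signal value of 149.7 at rank 23. It scored 132.9 in replicate 1 (rank 19) and 20.4 in replicate 2 (rank 179). The summit was 14953 bp from the gene's start, in an exon of 459 bp, and 234 bp from the nearest annotated transcript start. A further member of nurf-1 scored 54.6 (rank 340; ranks 276 and 275 in the replicates) and lay 223 bp from another transcript's start. Both replicates placed these 2 summits among their 500 highest peaks. The other member of nurf-1 was lower, at 35.9 (pooled rank 1415), and ranked 3027 in replicate 1 and 15979 in replicate 2.

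The next members by height were Y43F8B.2 at 134.8 (replicate ranks 24 and 528), gldi-8 at 118.8 (33 and 354), drap-1 at 118.1 (50 and 94) and mnk-1 at 99.1 (68 and 1518). The gene mnk-1 encodes a kinase that acts downstream of MAP kinases, and RefSeq describes the product of gldi-8 as a C2H2 zinc finger protein. Of these summits 3 lay close to an annotated transcript start, at 75 bp in Y43F8B.2, 68 bp in drap-1 and 77 bp in mnk-1. In gldi-8, drap-1 and mnk-1 the summit was in a 5′ untranslated region. The gldi-8 gene holds another member close by, 367 bp from the start where the first is at 568 bp, with a value of 51.7, and both share the same replicate peaks, so they are not separate observations.

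The cuticle collagen gene sqt-3 held the highest member among collagens, at 81.9 (replicate ranks 128 and 474). It lay 354 bp from the gene's start and 222 bp from the start of another transcript. In zig-11, which encodes an immunoglobulin-domain protein, and in sup-26, which encodes an RNA-binding protein, the highest summit was in the 3′ untranslated region, 288 bp and 304 bp before the annotated end. These were among the best supported in replicate 2, with ranks 64 and 93 there against 180 and 161 in replicate 1. The 14-3-3 gene par-5 (69.0), chdp-1 (61.1) and the folliculin gene flcn-1 (60.8) also had their summits in 3′ untranslated regions.

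Not all high members were high in both libraries. In fasn-1, the fatty acid synthase gene, the highest summit scored 64.3 with rank 210 in replicate 1 and rank 10924 in replicate 2. In the ankyrin gene unc-44 the values were 58.7 and ranks 247 and 9100, and in the zinc finger gene zfp-1 58.5 and ranks 243 and 5768. In T02G5.3 the replicate ranks were 105 and 4420, and in the homeobox gene unc-62 they were 155 and 3199. For the 25 highest members together, all 25 had a rank within 1000 in replicate 1 and 14 in replicate 2.

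The members with the best worse rank over the replicates were drap-1, F49E11.2, sup-26, nurf-1, zig-11, C56C10.7, the second nurf-1 peak, magu-2 and the gldi-8 pair. In F49E11.2 the pooled rank was 375 (53.4), yet the replicate ranks were 133 and 71, and the pooled list had another summit 199 bp away. In C56C10.7 the replicate ranks were 267 and 192, and in magu-2 344 and 195. These genes were named by rule for the ranks, so their low ranks are not a further result.

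Member summits lay near a transcript start more often than eligible bases in general. Transcripts of any protein-coding gene were counted, on either strand, so a start need not belong to the gene that held the summit. A protein-coding transcript started within 250 bp of 130 member summits (10.1%, 95% interval 8.50 to 11.9%), while 5.58% of eligible bases lay that close to one. The share was 10% for the exonic summits of replicate 1 alone and 8.91% for those of replicate 2 alone. It was 32.0% of the 25 highest members (8 summits), 22.0% of the members in the IDR list (13 of 59) and 5.84% of the lowest group of 257 by height (15 summits). Ends of single transcripts lay within 250 bp of 68 summits (5.28%), beside 3.02% of eligible bases.

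Most member summits were in coding sequence, and 3′ untranslated exons held more than their share. Coding sequence held 1134 summits (88.0%, 95% interval 86.1 to 89.7%) and 92.6% of eligible bases, or 6.80 summits per 100 kb. Sequence that was only 3′ untranslated held 112 summits (8.69%) and 4.43% of eligible bases, or 14.1 per 100 kb. In the separate lists of replicates 1 and 2 that density was 12.1 and 12.3 per 100 kb, beside 6.50 and 7.77 in coding sequence. Sequence that was only 5′ untranslated held 34 summits (2.64%), 7.67 per 100 kb. A further 2 summits were in both kinds of untranslated region and 7 in neither, and 125 (9.70%) were intronic in another transcript.

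Untranslated regions took a larger part of the highest members. Of the 25 highest, 15 were in coding sequence, 5 in 5′ and 5 in 3′ untranslated regions. Of the 59 in the IDR list, 45 were in coding sequence (76.3%, 95% interval 63.4 to 86.4%), beside 1089 of the other 1230 (88.5%). The coding share was 84.1% in the highest of the 5 groups by height and 90.7% in the lowest.

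By relative position along the gene, members were most dense towards the end. The median position of a member was 64.9% of the way from start to end. Taken one by one, the medians were 3398 bp for the distance from the start, 1782 bp for the distance from the end and 5889 bp for the length of the gene. Density was 9.04 per 100 kb of eligible bases over the first 10% of the gene, lowest at 4.95 from 20 to 30%, and 15.1 over the last 10%. The first 10% gave 6.48 in replicate 1, below the 6.82 of that replicate over all eligible bases, and 10.1 in replicate 2. The last 10% gave 14.5 in replicate 1 and 12.9 in replicate 2, and the stretch from 20 to 30% gave 4.89 and 6.67. The position rule removes the first and last 250 bp of every gene, so the outer bins hold bases of long genes only.

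**Figure D3:**
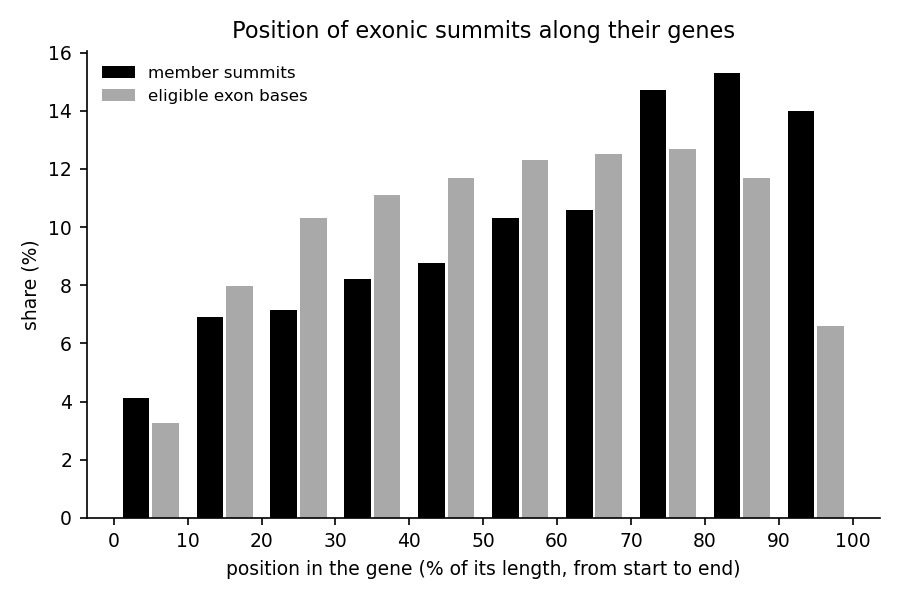
The share of the 1289 member summits (black) and of eligible exon bases (grey) is plotted for 10 equal bins of the gene from its start to its end. Members exceed the bases in the first bin (4.11% against 3.25%) and in the last 3 bins (14.7, 15.3 and 14.0% against 12.7, 11.7 and 6.60%).

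The last exon of the gene held 258 members (20.0%) at 11.7 per 100 kb, with 10.3 in replicate 1 and 11.7 in replicate 2. Internal exons held 988 members at 6.50 per 100 kb, and first exons 43 at 7.45. By distance from the start, density was 6.67 per 100 kb at 251 to 500 bp, 4.19 at 501 to 1000 bp, 4.59 at 1001 to 2000 bp, 7.29 at 2001 to 5000 bp and 12.9 beyond. By distance to the end, density was 8.0 at 251 to 500 bp and 6.23 at 501 to 1000 bp. It was 5.79 at 1001 to 2000 bp, 7.78 at 2001 to 5000 bp and 8.91 beyond, so it was not highest nearest the end. The bin beyond 5000 bp was also the highest in each replicate, at 7.9 in replicate 1 and 9.73 in replicate 2. Only long genes have bases beyond 5000 bp, so distance and gene length move together in these values.

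Members lay in long exons. The exon holding a summit, with overlapping exons of different transcripts merged, had a median length of 530 bp (interquartile range 268 to 955 bp), whereas the median over eligible bases was 355 bp. Density was 4.28 per 100 kb in exons of up to 200 bp, 5.78 above that and up to 400 bp, 8.12 up to 800 bp, 11.5 up to 1600 bp and 12.9 in longer exons. Replicate 1 gave 4.22, 5.47, 7.52, 11 and 12.5 in the same bins, a steady increase. Replicate 2 gave 4.70, 7.43, 9.32, 12.1 and 10.4, with a lower value in the longest bin. The 350 bp peaks often reached past the exon, and 450 members (34.9%) were exonic over their whole width.

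Members were richer in GC than the exon bases they came from. The summit base with 100 bases on either side had a median GC content of 42.8% (interquartile range 39.3 to 46.3%), beside 39.3% (35.8 to 43.8%) around eligible bases. GC content was under 35% at 5.66% of members and at 21.8% of eligible bases. Intronic peaks had a median of 40.3%, peaks near starts or ends 38.8% and peaks near small RNA genes 43.8%. The GC content of all bases in those classes is not given here, so a difference between classes need not be one of the peaks. Within the members, GC content had a Spearman's rho of 0.095 with the pooled signal value (n = 1289), 0.029 with that of replicate 1 (n = 1277) and 0.142 with that of replicate 2 (n = 1091).

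The replicates parted in the sequence richest in GC. From 30 to 35% GC the pooled, replicate 1 and replicate 2 densities were 2.21, 2.72 and 2.21 per 100 kb, and from 40 to 45% they were 10.4, 9.45 and 10.8. At 50% and above they were 10.4, 7.56 and 16.5, so density was lower than in the bin below in replicate 1 and higher in replicate 2. Members with a peak among the 5000 highest of both replicates had a median GC content of 44.0%, those in replicate 1 only 41.8% and those in replicate 2 only 43.3%. The part of base composition in the replicate difference was not tested.

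**Figure D4:**
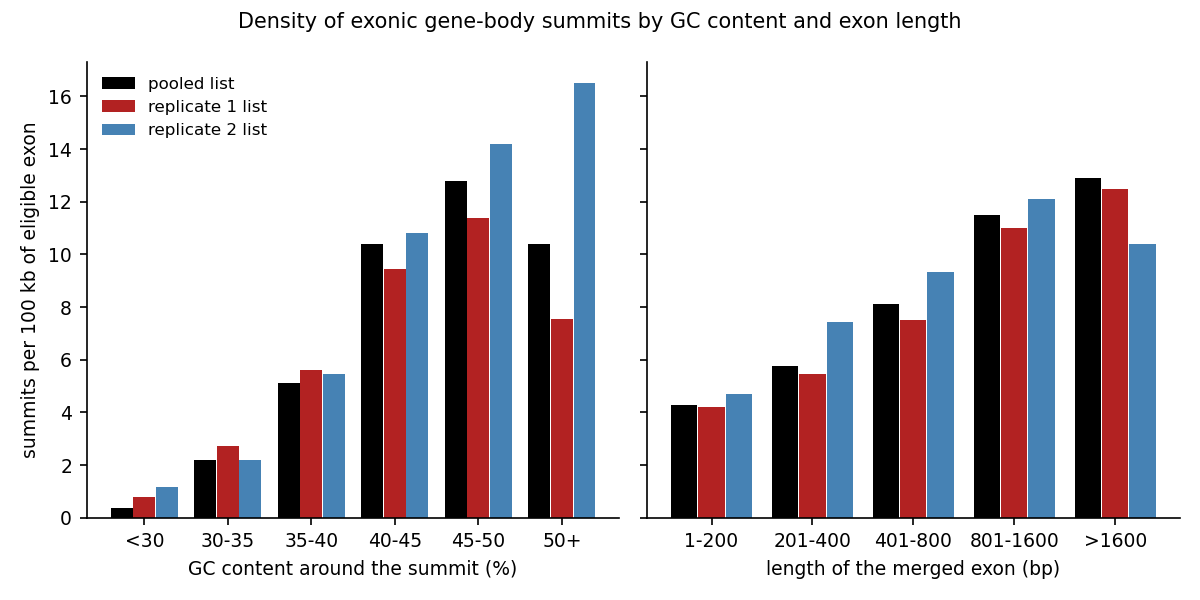
Summits per 100 kb of eligible exon (bars, from 0) are shown by GC content of the same window around the summit (left) and by length of the merged exon (right) in the pooled list and in each replicate's list. Density rises up to 45 to 50% GC in all 3 lists, then falls to 7.56 in replicate 1 and rises to 16.5 in replicate 2; by exon length it rises in the pooled and replicate 1 lists up to the longest bin.

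Sequence copies were uncommon among members. At 1270 members (98.5%) every 31-base word of that window occurred once in the genome, beside 94.8% of all autosomal peaks in the pooled 5000. Soft-masked bases, which mark repeats and low-complexity sequence, had a median share of 9.95%, beside 21.4% at intronic peaks. A non-coding gene other than the excluded small RNA classes overlapped 14 summits, in mnk-1 among others.

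Members were spread over the autosomes in step with the other peaks. They were 294 of 1012 peaks on chromosome I (29.1%), 256 of 890 on II (28.8%), 277 of 928 on III (29.8%), 245 of 825 on IV (29.7%) and 217 of 751 on V (28.9%). Per 100 kb of eligible bases the density was 8.39 on I, 7.36 on II, 8.74 on III, 7.25 on IV and 4.86 on V. Chromosome V was lowest in each replicate as well, at 5.17 in replicate 1 and 5.80 in replicate 2.

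The members fell in 890 genes, 5.59% of the 15924 autosomal protein-coding genes with eligible bases. The exonic summits of replicate 1 fell in 841 genes and those of replicate 2 in 1138. Genes with more eligible exon more often held a member, from 1.36% of those with under 500 bp to 29.4% of those with 4000 bp or more. Density was 5.30 per 100 kb in genes with under 500 bp (6.0 in replicate 1 and 7.56 in replicate 2) and lowest, at 4.49, in those with 500 to 999 bp (4.15 and 5.16). From there it rose to 11.1 in the largest class, with 10.7 in replicate 1 and 11.5 in replicate 2. Several members were found in 218 genes, which held 617 of the 1289, and 18 genes held 5 or more.

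Some members had another summit close by. Another of the 5000 highest summits lay within 1000 bp of 526 members (40.8%) and within one peak width of 81 (6.28%). The same shares over all autosomal peaks are not given here, so closeness cannot be called particular to the members. At 46 members the best replicate 1 peak was shared with another member, and at 40 the best replicate 2 peak. Such members are not separate observations.

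The genes with the most members were mostly long, and several encode cytoskeletal or membrane proteins. The ankyrin gene unc-44 and the spectraplakin gene vab-10, which encodes a linker between filament systems, held 11 each, over 22444 bp and 23644 bp of eligible exon. Their summits were unevenly placed. In unc-44, 10 of 11 lay within 10182 bp of the start of this 29301 bp gene, although it has an exon of 14975 bp that held only the summit at 26621 bp. In vab-10 all 11 lay between 28050 and 56971 bp along the 57568 bp gene. In each of the 2 genes, 4 members had a peak among the 5000 highest of both replicates.

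The fatty acid synthase gene fasn-1 held 10 members, from 1763 to 9274 bp along its 11175 bp, of which 9 were among the 5000 highest of replicate 1 and 5 of replicate 2. The cadherin gene cdh-4 held 9, with signal values from 24.7 to 37.0, and din-1, the gene of a cofactor of the nuclear receptor DAF-12, held 8. None of the members of cdh-4, din-1, mig-38 or chd-7 was in the IDR list, which held 4.58% of all members. All of them scored below the lowest member in that list (49.9), so this absence follows from their pooled height and is no separate result. The mig-38 gene, named for abnormal cell migration, and the chromodomain helicase gene chd-7 held 6 each. In mig-38, 5 members were among the 5000 highest of replicate 1 and 1 of replicate 2, and none in both, whereas in chd-7 4 of 6 were in both.

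The kinase gene mnk-1, sup-26 and unc-62 held 5 members each. In mnk-1, 3 of the 5 lay in the 3′ untranslated exon, between 11102 and 12181 bp, where a non-coding RNA gene is also annotated, and without strand the source cannot be told apart. In sup-26 the 5 members filled 2352 bp of eligible exon, 2.13 per kb, and 4 of them shared replicate 1 peaks in pairs. In unc-62 the highest summit (69.2) lay 10507 bp from the start, in an exon of 2945 bp that also held 2 lower summits.

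**Figure D5:**
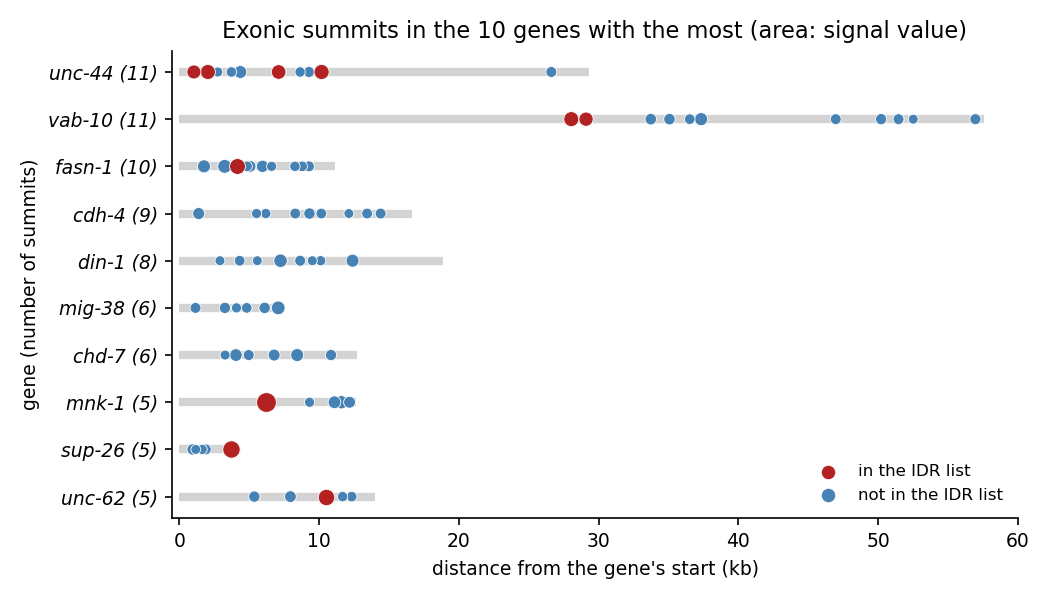
Each grey bar is 1 of the 10 genes with the most members, drawn from its start at the left (kb), and each disc is a member summit with its area in proportion to the pooled signal value, red where the peak was in the IDR list. Summits of unc-44 gather in the first 10182 bp and those of vab-10 lie beyond 28050 bp, while those of fasn-1 run along most of the gene.

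Among gene groups, densities are given per 100 kb of eligible exon, beside 7.15 for all genes in the pooled list, 6.80 in replicate 1 and 7.96 in replicate 2, and the share of genes beside 5.59%. The groups are lists of gene symbols and are described by counts alone. Chaperone and heat shock genes had the highest density in the pooled list, 33.0, with members in 15 of 66 genes, and 30.2 and 35.7 in the replicates. None of these members was among the 1000 highest pooled peaks. The highest were enpl-1, the endoplasmic reticulum HSP90 gene, at 36.2 (replicate ranks 1113 and 4326), the HSP70 gene hsp-1 at 35.6 (1546 and 1379) and the protein disulphide isomerase gene pdi-3 at 35.6 (1870 and 5353).

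Lists of matrix and cytoskeletal genes followed. Basement membrane and matrix genes had members in 9 of 19 genes and a density of 27.9, with 26.9 in replicate 1 and 18.3 in replicate 2. Their highest were the netrin receptor gene unc-5 at 45.7, the receptor phosphatase gene ptp-3 at 41.5 and the laminin alpha gene epi-1 at 41.4. The list thus holds receptor genes too, and its density is not that of matrix components alone. Spectrin and cytoskeletal linker genes had members in 12 of 37 and a density of 24.2, with 23.6 and 23.0 in the replicates. After unc-44 and vab-10 the highest was sma-1, which encodes a heavy beta-spectrin, at 48.4 (ranks 436 and 7307). Muscle sarcomere and attachment genes were closer to all genes in density, at 7.04 (9.24 and 7.04 in the replicates), with members in 10 of 35, led by the talin gene tln-1 at 40.7, the paramyosin gene unc-15 at 36.2 and the troponin C gene pat-10 at 35.4. The pat-10 summit had no peak in replicate 2.

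Most lists of nuclear functions also stood above the all-gene density. Chromatin and transcription regulators had members in 17 of 81 genes at 18.4 per 100 kb, with 18.4 and 15.3 in the replicates. After nurf-1 and zfp-1 came cbp-1 at 54.8, which ranked 353 in replicate 1. Spliceosome and RNA-binding genes had members in 16 of 72 at 18.1, with 16.3 and 17.2. They were led by hrpr-1 at 53.3 (676 and 323), hrpa-1 at 41.6 (1184 and 233), both genes of hnRNP proteins, and the splicing regulator gene asd-2 at 39.4 (1228 and 19326). A list of 413 transcription factor genes (homeobox, T-box and others) had members in 36 at 12.7, with 11.1 and 8.08, led by unc-62, nhr-66 at 49.9 and ztf-6 at 45.9. RNA polymerase II and Mediator genes were near all genes, with members in 7 of 64 at 7.45 in the pooled list and in each replicate. The ama-1 gene itself held a member at 29.2, 263 bp from its start, just outside the start window, and another at 24.9, 8168 bp from its start.

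Signalling genes had a density above all genes, and that of energy genes rested largely on 1 gene. The Wnt, Notch, TGF-beta and Ras list had members in 15 of 55 genes at 19.4 per 100 kb, with 19.4 in replicate 1 and 18.7 in replicate 2. Its highest members lay in 3 Frizzled receptor genes, lin-17 at 52.3 (535 and 2062), mom-5 at 43.3 (1050 and 2366) and cfz-2 at 40.0 (1660 and 2669). Energy metabolism genes had members in 12 of 91 at 20.7, with 21.6 and 15.3. Of their 23 members 10 lay in fasn-1, and without it the density was 12.6, with 14.5 and 13.6. Besides fasn-1 these were led by idh-1, an isocitrate dehydrogenase gene, at 43.8, and ucr-2.3, which encodes a complex III core protein, at 42.5.

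Short genes had few eligible bases, and their densities rest on few summits. Cytosolic ribosomal protein genes had 3 members, in rps-17 at 37.6, rpl-30 at 37.5 and rps-5 at 29.5, over only 12.2 kb of eligible exon (24.6 per 100 kb, with 16.4 and 41.0 in the replicates). Only 14 of 78 autosomal histone genes had eligible bases, and the 1 member among genes with his or hil symbols, in the linker histone gene hil-2 at 29.3, ranked 96 in replicate 2 and was missing from replicate 1. The gene ZK484.3, which RefSeq names a histone H1, is not in the list by symbol and held a higher member at 61.7 (pooled rank 234, replicate ranks 315 and 420), which was in the IDR list. Cuticle collagens had members in 5 of 146 genes at 5.08 per 100 kb, with 4.06 and 9.14. After sqt-3 these were led by dpy-14 at 53.6 (347 and 1775) and col-120 at 28.6, which had no peak in replicate 2.

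Other groups depended on the replicate. Cell cycle and DNA replication genes had members in 11 of 120 at 5.39 per 100 kb, yet 4.15 in replicate 1 and 12.0 in replicate 2. They were led by cki-1, a cyclin-dependent kinase inhibitor gene, at 44.3 (645 and 12812), the topoisomerase gene top-1 at 35.1 and cdk-5 at 34.1. Proteasome and ubiquitin genes had 8.03, with 4.02 and 16.9 (5.16, 2.58 and 15.5 without hecd-1, which held 4 members), and translation factors and tRNA synthetases 7.71, with 1.29 and 9.0. The highest were the ubiquitin ligase genes hecd-1 at 42.4 and eel-1 at 30.2 and the cullin gene cul-4 at 27.6, and the synthetase genes ears-1 at 28.3, fars-1 at 27.5 and tars-1 at 26.8. None of the members of these 2 lists (10 and 6) had a peak among the 5000 highest of both replicates, beside 25.1% of all members. With so few members this is a description only, and the highest hecd-1 summit was close to the limit, at ranks 855 and 5049.

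Epidermal, neuronal, germline and cilia genes had densities below all genes in the pooled list. In the separate lists the epidermal group was above all genes in both replicates and the neuronal group in replicate 2. Apical matrix and epidermis genes had members in 5 of 94 at 4.68 per 100 kb (7.79 and 8.31 in the replicates), led by lin-26, an epidermal transcription factor gene, at 43.3 (2520 and 204), and the apical matrix genes noah-2 at 42.7 and noah-1 at 34.3. Pan-neuronal and synaptic genes had members in 6 of 94 at 3.73 (4.47 and 8.95). Their highest were the G protein alpha q gene egl-30 at 48.8, the JIP3 homologue unc-16 at 42.6 and the Trio-like exchange factor gene unc-73 at 38.1. Germline genes had members in 3 of 82 at 1.75 (1.16 and 4.66), in him-10 at 36.0, him-18 at 27.6 and nos-3 at 25.9. Cilia genes had members in 2 of 60 at 1.78 (1.78 and 6.22), in dyf-2 at 29.0 and arl-13 at 25.4.

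Genes that carry the symbols of large divergent families held few members. Chemoreceptor genes had them in 3 of 1251 (0.376 per 100 kb over 797.7 kb, with 0.501 and 0.877 in the replicates), in srt-47 at 47.2 (882 and 1590), str-83 at 25.8 and srj-37 at 24.7. Genes with F-box, MATH and BTB family symbols had members in 2 of 461, bath-40 at 35.9 and fbxb-100 at 28.7 (0.560 per 100 kb). Symbols miss part of this family. Among 281 further genes whose RefSeq product names an F-box, BTB or MATH domain, 7 held members, T28B11.1 at 59.3, pqn-87 at 43.7, dre-1 at 38.5, shw-3 at 36.4, kel-1 at 32.0, Y43F8C.3 at 31.9 and lin-23 at 28.7. C-type lectin genes had 1 in 235, clec-264 at 54.4 (497 and 2493), or 0.564 per 100 kb. The 3 symbol lists were at 2.25 per 100 kb or below in the pooled list and in both replicates.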

How the data were processed

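ChIP-seq peaks of 2 biological replicates were analysed. Column 7 of the lists deposited by the authors holds a signal value, a peak score of unstated scale, and the summit is the position that the authors deposited for each peak. Each relaxed list on ce11 has 30000 peaks and the IDR list has 476, all equal to the 476 highest pooled peaks. Nothing used here states the aligner, the caller, the IDR threshold or the read numbers. The intervals therefore cover the counting of peaks only.

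Genes were those of Ensembl release 115 (WBcel235), with exons of all transcripts of protein-coding genes, and the bases came from the RefSeq genome of the same assembly. Coordinates are 1-based. A replicate supported a member when a peak overlapped it by at least 1 bp. The best such rank was used. Distances to transcript starts and ends are to the nearest protein-coding transcript of any gene, on either strand. GC content and 31-base words were taken over the summit base and 100 bases on either side. Eligible bases are all autosomal exon bases that met the same position rule. A base shared by overlapping genes counted once for the autosomes and once per gene for genes and lists. The classification was tested on random positions. Python 3.11.15, numpy 2.4.6, pandas 2.3.3, scipy 1.17.1 and matplotlib 3.10.9 were used.

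The members, the 23 gene lists and the rules were chosen with earlier results of these data known. Named genes are the 25 highest members, the 10 genes with the most members, the 10 members with the best worse rank over the replicates, the 3 genes with the highest member in each list, and the 5 peaks on each side of the rank limit. With 1 group there was no test between conditions, and no p-value was computed. Alternatives changed the number of peaks, the replicate used, the distance, the exon definition, the small RNA filter, the overlap rule, the sequence filter, the number of members per gene, the peak list and the transcript ends. The ce10 lists were not used.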

Additional observations from a re-analysis of the deposited data

How the results depend on the processing

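Of 120 recomputed values, 84 stayed within the spread of the replicates' own lists (1 SD), the value's exact interval or, for counts, 1.5 times the count. The number of members (1289) was 557 among the 2500 highest pooled peaks, 2725 among the 10000 highest and 59 in the IDR list. Their share of autosomal peaks (29.3%) was 38.8% with 100 bp, 21.4% with 500 bp and 24.8% with the ends of all transcripts, and 27.9 to 33.7% with 1 replicate left out. The share in both replicates (25.1%) was 43.6% and 13.8% with 2500 and 10000 peaks, 22.1% with the 5000 highest autosomal peaks, 15.3% with summits within 100 bp, 20.2% with an overlap of at least 50% of the member, 2.40% with the 1000 highest peaks and 72.9% in the IDR list. The share in the IDR list (4.58%) was 10.6%, 2.17% and 7.03% with 2500 peaks, 10000 peaks and 100 bp. These shares were not computed for lists of 1 replicate.

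The coding share (88.0%) was 86.2% and 89.6% with 2500 and 10000 peaks, 85.8% and 91.5% with 100 and 500 bp, 91.0% with bases exonic in every transcript, 90.5% with all transcripts' ends, 76.3% in the IDR list, 88.3 to 90.2% with 1 replicate left out and 100% by construction with coding sequence only. The median exon length (530 bp) was 474 bp with 10000 peaks, 491 bp with 100 bp, 468.5 bp with coding sequence only, 484.5 bp with 1 member per gene, 744 bp in the IDR list, and 477 to 530 bp with 1 replicate left out. The median position (64.9%) was 60.4 to 65.7% with 1 replicate left out. Genes with several members (218) numbered 87 and 502 with 2500 and 10000 peaks and 6 in the IDR list. The median GC content moved least, between 41.8 and 43.3%. The cause of these shifts was not tested beyond the change in the peaks kept. No paired analysis was possible because both replicates belong to 1 group. Leaving out the gene with the most members of each list, chosen after seeing the data, moved the density of lists with 4 or more members by over 1.5 times for energy metabolism (20.7 to 12.6) and proteasome genes (8.03 to 5.16). Unknown read depth limits every value.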
